A study of Mus musculus with 2 samples.

Results

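The steroid hormone receptors examined here were the 5 genes Esr1, Esr2, Pgr, Nr3c1 and Nr3c2, chosen by symbol from the 47069 genes of the count table. Levels are given in CPM, the count of a gene after each library is scaled to a total of 1000000. Of the 5 members, 4 averaged 1 CPM or more over both libraries, as did 16504 genes in all, and Esr2 did not. Bulk RNA-seq of poly(A) RNA was performed on 2 samples of acutely dissociated primary pituitary cells from randomly cycling C57BL/6 female mice of 10 to 12 weeks, with no treatment other than the stabilizer. Each sample pooled 500000 to 700000 cells from 5 pituitaries. Cells of one sample were placed directly in RNA-Best, a buffer that stabilizes RNA in intact single cells, and those of the other in RNAlater, an established RNA stabilizer that served as the reference. With 1 library per stabilizer there are no replicates, and the differences below were not tested. The stabilizer, the pooled animals and the library preparation cannot be told apart, and the stage of the estrous cycle in each pool was not given in the sources used here. In total 53915047 counts were assigned in RNA-Best, 29.7% of them to Prl and Gh, and 44917492 in RNAlater, 23.2% of them to these hormone genes. Intervals are at the 95% level. They account for counting error alone, and PCR copies of a molecule make them too narrow.

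Steroid hormone receptors are transcription factors that are switched on by a lipid-soluble hormone. Without hormone they are held by a complex around the chaperone Hsp90. With hormone they bind DNA through a pair of zinc fingers and recruit coactivators or corepressors. In the pituitary they carry feedback from the gonads and the adrenal cortex. Estrogen receptor alpha, encoded by Esr1, acts in lactotropes and gonadotropes, where it promotes prolactin synthesis and sets gonadotropin output. Estrogen receptor beta is encoded by Esr2. The progesterone receptor, encoded by Pgr, is a known estrogen-induced gene of gonadotropes. The glucocorticoid receptor, encoded by Nr3c1, restrains Pomc in corticotropes, and the mineralocorticoid receptor, encoded by Nr3c2, binds both aldosterone and glucocorticoids.

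The receptors descend from common ancestors, so it was first asked whether reads of 51 bases, the length sequenced, could be assigned to the wrong member. The most alike stretches of their coding sequences all lay in the zinc-finger region. Shown here, to let the differing bases be seen, are for each of 2 pairs its own most alike 51-base windows, those of the estrogen receptors (45 of 51 bases matching) and those of Nr3c2 and Pgr (46 of 51), the pair with the longest shared run (24 bases). The windows of Nr3c1 with Nr3c2 and with Pgr, also at 46 of 51, are not shown. They are written 5′ to 3′ on the coding strand, with capitals at the bases that differ within each pair.
Esr1: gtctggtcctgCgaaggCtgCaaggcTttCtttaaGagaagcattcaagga
Esr2: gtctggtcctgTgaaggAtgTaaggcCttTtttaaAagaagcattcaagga
Nr3c2: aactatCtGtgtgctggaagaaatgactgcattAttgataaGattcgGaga
Pgr: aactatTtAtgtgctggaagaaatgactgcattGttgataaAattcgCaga
The Esr1 window (chr10:4746759-4783858, + strand, GRCm38) crossed from exon 4 to exon 5 of the longest transcript, and the Esr2 window (chr12:76158717-76165497, - strand) from exon 3 to exon 4. They differed at 6 of 51 bases. The Nr3c2 window (chr8:77155210-77155260, + strand) lay in exon 4 and the Pgr window (chr9:8922607-8922657, + strand) in exon 3, with 5 differing bases. Over the whole zinc-finger region of 168 bases, Esr1 and Esr2 were 82.7% identical, and Nr3c2 and Pgr 80.4%. Esr1 and Nr3c2 were 64.9% identical there.

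No 51-base stretch of any member's longest transcript occurred in a transcript of another member. Transcripts of other genes held none of the stretches of Esr1 and Pgr, 1 of 3312 of Esr2 and 5 of 6386 of Nr3c1. For Nr3c2 they held 147 of 5866, all in Gm10649, a noncoding RNA that shares 247 exon bases with Nr3c2 on the opposite strand. For Gm10649 itself 14 counts were listed in RNA-Best and 7 in RNAlater. Counts of Esr1, Pgr and Nr3c2 were whole numbers in both libraries, as was that of Nr3c1 in RNA-Best. Stretches elsewhere in the genome were not searched.

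By CPM Esr1 was the most abundant member in both libraries, followed by Nr3c1. Nr3c2 and Pgr were close to each other and lower. Esr2 was near the limit of detection.

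**Figure D1:**
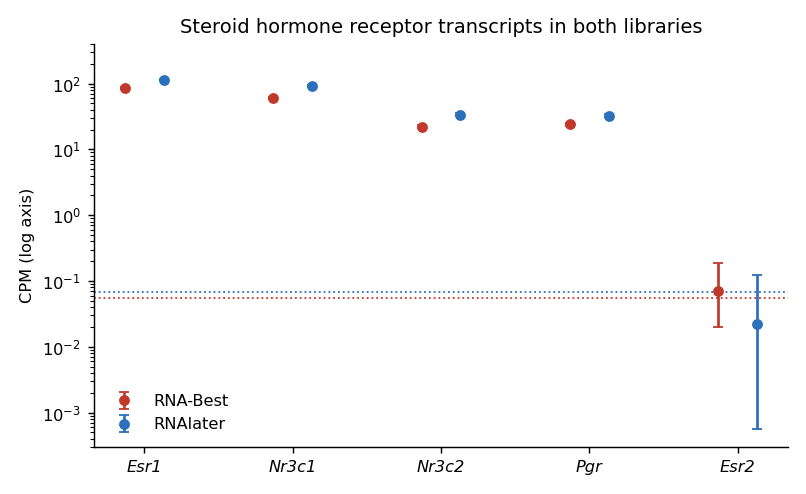
Level in CPM (log axis) of the 5 steroid hormone receptors in RNA-Best (red) and RNAlater (blue), with exact Poisson 95% intervals as bars, which are shorter than the points except for Esr2. Dotted lines mark 3 counts in each library. The RNAlater point lies above the RNA-Best point for Esr1, Nr3c1, Nr3c2 and Pgr, and Esr2 lies near the dotted lines.

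Esr1 (ENSMUSG00000019768.16, chromosome 10, 4611593-5005614, + strand) has 10 exons in its longest transcript of 6339 bases, of which 1797 are coding. It had 4661 counts in RNA-Best, or 86.5 CPM (interval 84.0 to 89.0), and 5118 counts in RNAlater, or 113.9 CPM (110.8 to 117.1). The RNA-Best level was 24.1% lower, a log2 ratio of -0.40 (-0.46 to -0.34) on CPM with 0.5 CPM added, with the interval computed on the counts alone.

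Esr2 (ENSMUSG00000021055.13, chromosome 12, 76120419-76177259, - strand) had an estimated 3.75 counts in RNA-Best, or 0.0696 CPM (0.0202 to 0.190), and 1 count in RNAlater, or 0.0223 CPM (0.00056 to 0.124). A count of 0 would allow up to 3 counts, a floor of 0.0556 CPM for RNA-Best and of 0.0668 CPM for RNAlater. The RNA-Best value lay just above its floor and the RNAlater value below. The ratio of RNA-Best to RNAlater had an interval from 0.330 to 164, and no difference was detectable at this depth. Per kb of the longest transcript, Esr1 exceeded Esr2 by 618-fold (241 to 2269) under RNA-Best and by 2714-fold (487 to 107235) under RNAlater. Of the paired estrogen receptors, the pituitary cells thus yielded reads almost entirely from Esr1 in either stabilizer.

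Pgr (ENSMUSG00000031870.16, chromosome 9, 8899833-8968611, + strand) has 8 exons in a longest transcript of 6889 bases. It had 1290 counts in RNA-Best, or 23.9 CPM (22.6 to 25.3), and 1470 in RNAlater, or 32.7 CPM (31.1 to 34.4). The log2 ratio was -0.44 (-0.56 to -0.34), and the RNA-Best level was 26.9% lower.

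Nr3c1 (ENSMUSG00000024431.14, chromosome 18, 39410545-39519421, - strand) has 9 exons in a longest transcript of 6436 bases. It had 3225 counts in RNA-Best, or 59.8 CPM (57.8 to 61.9), and 4083.5 in RNAlater, or 90.9 CPM (88.2 to 93.8). Nr3c2 (ENSMUSG00000031618.13, chromosome 8, 76899442-77245012, + strand) likewise has 9 exons, in a longest transcript of 5916 bases. It had 1192 counts in RNA-Best, or 22.1 CPM (20.9 to 23.4), and 1507 in RNAlater, or 33.6 CPM (31.9 to 35.3). The corticosteroid receptors had the lowest ratios of the 4 measured members, at a log2 ratio of -0.60 (-0.67 to -0.54) for Nr3c1 and -0.59 (-0.71 to -0.49) for Nr3c2, and were 34.2% and 34.1% lower in RNA-Best.

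All 4 members above the 1 CPM limit were thus lower in RNA-Best on the CPM scale, with counting intervals that excluded 0. Among all 16504 genes with this level 67.0% were lower, and the median log2 ratio was -0.18. Scaling moved this share, to 51.3% with TMM factors, 50.3% with DESeq2 size factors and 55.2% with a total that leaves out Prl and Gh, and all 4 members remained lower under each. None of the 4 was 2-fold lower. Of all genes tested 4.99% were at least 2-fold lower and 0.273% at least 2-fold higher, shares at which none of 4 genes is no result about the members. The median of the 4 was -0.52. The summed level of all 5 members was 192 CPM in RNA-Best against 271 CPM, or -0.50 (-0.53 to -0.46) as a log2 ratio. Relative to the median of all genes, Esr1 stood at -0.22, Pgr at -0.27, Nr3c2 at -0.42 and Nr3c1 at -0.42. These relative values were nearly the same under the other scalings, with Esr1 at -0.21 and Nr3c1 at -0.41 by TMM factors or DESeq2 size factors. A scaling shifts the ratios of all genes and their median by nearly the same amount. This sameness was thus fixed in advance and is no result about the members.

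Whether the members differed from each other in their ratio between the libraries was examined in 6 pairs, by the difference of their log2 ratios of counts. In 3 pairs the interval of the difference excluded 0. The ratio of Esr1 was higher than that of Nr3c1 by 0.21 (0.12 to 0.29) and than that of Nr3c2 by 0.20 (0.08 to 0.33). The ratio of Nr3c1 was below that of Pgr by a difference of -0.15 (-0.28 to -0.03). Nr3c1 and Nr3c2 differed by -0.00221 (-0.13 to 0.13) and Esr1 and Pgr by 0.05 (-0.07 to 0.18). Nr3c2 and Pgr differed by -0.15 (-0.30 to 0.0039). The corticosteroid receptors thus stood within counting error of each other, as did Esr1 and Pgr, and also Nr3c2 and Pgr. These intervals hold no spread between samples.

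Levels of different genes were compared per kb of the longest annotated transcript. Esr1 had 13.6 CPM per kb in RNA-Best and 18.0 in RNAlater, and Nr3c1 9.29 and 14.1. Nr3c2 had 3.74 and 5.67 CPM per kb, and Pgr 3.47 and 4.75. The order Esr1, Nr3c1, Nr3c2, Pgr, Esr2 was the same in both libraries. With RNA-Best Esr1 exceeded Nr3c1 by 1.47-fold (1.40 to 1.53), and with RNAlater by 1.27-fold (1.22 to 1.33). Nr3c2 and Pgr, neighbours in this order, were not separable in RNA-Best at 1.08-fold (0.995 to 1.16) and differed by 1.19-fold in RNAlater (1.11 to 1.28).

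Of the summed level per kb of the 5 genes, Esr1 made up 45.2% (44.3% to 46.2%) under RNA-Best and 42.3% (41.4% to 43.1%) under RNAlater. Nr3c1 made up 30.8% (29.9% to 31.7%) and 33.2% (32.4% to 34.0%). The shares of Nr3c2 were 12.4% and 13.3% and those of Pgr 11.5% and 11.2%, with overlapping intervals between the libraries for each. The order of Esr1 and Nr3c1 depended on the length used. Their longest transcripts are of like length, but all annotated exons of Esr1 together cover 13661 bases and those of Nr3c1 7684. Per kb of all exons Nr3c1 was above Esr1 in both libraries, with 7.78 against 6.33 CPM per kb in RNA-Best and 11.8 against 8.34 in RNAlater. Per kb of the median transcript length the order of these genes differed between the libraries, with Esr1 at 32.3 and Nr3c1 at 31.6 in RNA-Best but 42.6 and 48.1 in RNAlater.

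The members were then placed among the 48 genes of the nuclear receptor superfamily, of which 38 averaged 1 CPM or more. By CPM per kb Esr1 had rank 9 of 48 in RNA-Best and rank 8 in RNAlater, and Nr3c1 rank 15 and rank 11. Nr3c2 had ranks 23 and 24, and Pgr rank 25 in both. Above Esr1 in both libraries were the orphan receptors Nr4a1, Nr4a2 and Nr4a3, which are immediate-early genes, the thyroid hormone receptor Thra, the clock repressors Nr1d1 and Nr1d2, and the oxysterol receptor Nr1h2. Nr4a1 was highest at 357 and 530 CPM per kb. Among the 31 receptors outside the steroid receptor branch 28 were lower in RNA-Best, with a median of -0.44, from -1.15 for Nr4a3 to 0.16 for Nr1h3, an oxysterol receptor. At least 2-fold lower were 4 of the 31 (12.9%), against 4.99% of all genes. With TMM factors or DESeq2 size factors 19 of the 31 were lower and 0 were 2-fold lower. The share of all genes lower was 67.0% by total count and 51.3% with TMM factors.

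**Figure D2:**
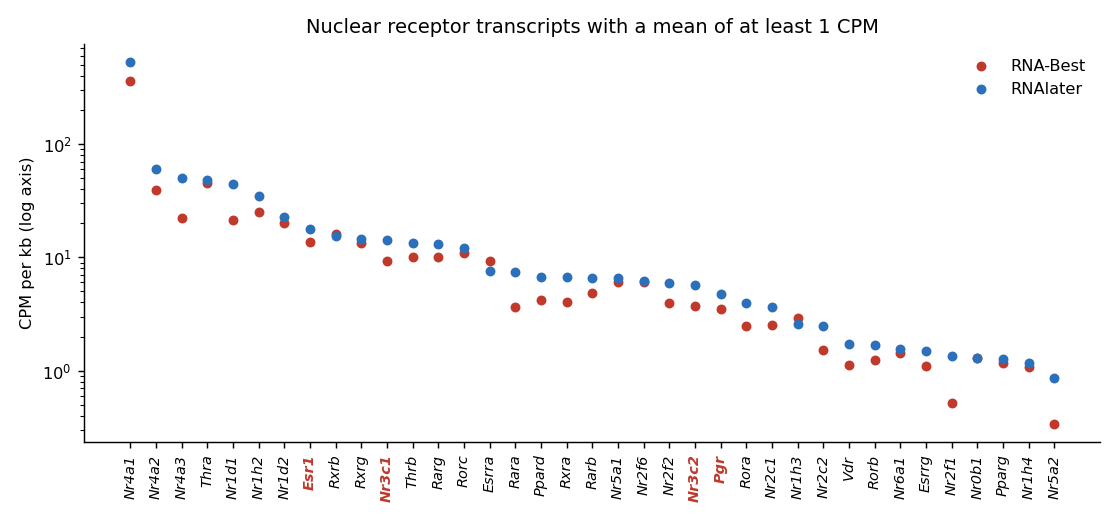
Level in CPM per kb of the longest transcript (log axis) of nuclear receptor genes that averaged 1 CPM or more, in RNA-Best (red) and RNAlater (blue), ordered by RNAlater, with the 4 measured steroid hormone receptors in bold red. Esr1 and Nr3c1 lie in the upper part of the order and Nr3c2 and Pgr in the middle.

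The estrogen-related orphan receptors, close relatives of the estrogen receptors, differed from gene to gene. Esrra, an estrogen-related orphan receptor of energy metabolism that does not bind estrogen, had 23.3 and 18.9 CPM and was higher in RNA-Best, at 0.30 (0.18 to 0.43). Esrrg stood at 5.90 and 8.08 CPM, with a ratio of -0.42 (-0.68 to -0.23). Esrrb was below the 1 CPM limit, with 7 counts in RNA-Best and 26.5 in RNAlater.

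The ratio was lower in genes with longer transcripts, and the members have long transcripts. At a length of 6-10 kb, the class of Esr1, Nr3c1 and Pgr, the median log2 ratio of 1757 genes was -0.65, and 20.9% of them were at least 2-fold lower in RNA-Best. At 4-6 kb, the class of Nr3c2, the median of 3463 genes was -0.40 and 5.66% were 2-fold lower. Within its class Esr1 was above 73.8% of genes, Pgr above 69.7% and Nr3c1 above 54.7%, whereas Nr3c2 was above 30.6%. A LOWESS trend of the ratio on the length of the longest transcript predicted between -0.63 and -0.54 for the 4 members. With this trend removed, Esr1 stood at 0.19 and Pgr at 0.18, while Nr3c1 stood at -0.0097 and Nr3c2 at -0.05. The direction of Esr1 and Pgr thus turned with the removal of the trend, and both still stood above the corticosteroid receptors. The part of length in the members' ratios was not tested. With the median transcript length in place of the longest, Esr1 stood at -0.06, Pgr at 0.02, Nr3c2 at -0.19 and Nr3c1 at -0.37.

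**Figure D3:**
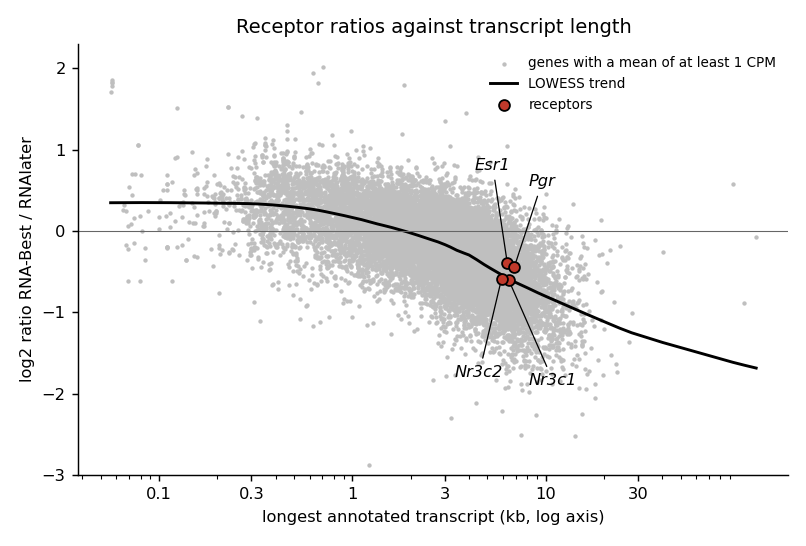
Log2 ratio of RNA-Best to RNAlater (CPM with 0.5 CPM added) against the length of the longest annotated transcript (kb, log axis) for genes that averaged 1 CPM or more (grey), with the LOWESS trend (black) and the 4 measured receptors (red). Nr3c1 and Nr3c2 lie on the trend, and Esr1 and Pgr lie above it.

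**Figure D4:**
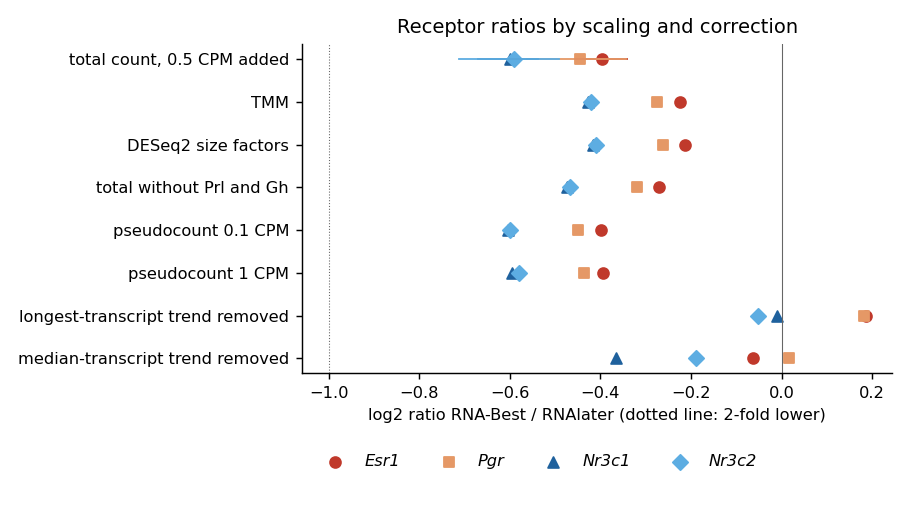
Log2 ratio of RNA-Best to RNAlater of the 4 measured members under each scaling, pseudocount and length correction, with counting intervals as lines in the top row. The points stay between -1, which is 2-fold lower, and 0 under every scaling and pseudocount. Esr1 and Pgr pass 0 when the trend on the longest transcript is removed, and Pgr but not Esr1 does so with the trend on the median transcript length.

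Among the machinery on which the receptors depend, the genes of the Hsp90 complex lay on both sides of 0. Of 14 genes, 8 were higher and 6 lower in RNA-Best, none by 2-fold, with a median log2 ratio of 0.01. With TMM factors or DESeq2 size factors 4 were lower and 10 higher, with medians of 0.18 and 0.19. Hsp90ab1, the constitutive cytosolic Hsp90, was the most abundant per kb, with a level of 3030 CPM under RNA-Best, 3716 CPM under RNAlater and a ratio of -0.29. The list ranged from -0.34 for Dnaja1, an Hsp40 co-chaperone, to 0.23 for Bag1, an Hsp70 cofactor. Fkbp5, an immunophilin that lowers hormone binding by the glucocorticoid receptor and is itself induced by it, had 30.9 and 37.6 CPM and a ratio of -0.28.

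By total count coactivators had the lowest median ratio of the pathway lists, followed by the corepressors. Of 16 coactivators matched, 15 were lower in RNA-Best and 5 of the 16 (31.2%) were at least 2-fold lower, with a median of -0.89 and a median transcript length of 6.78 kb. Of all genes 67.0% were lower and 4.99% were 2-fold lower. For genes with transcripts of 6-10 kb these shares were 95.2% and 20.9%. Those 5 were Arid1a, Ep300, Ncoa6, Ncoa3 and Smarca4, of which all but Arid1a were named after their values were seen. Arid1a, a subunit of the SWI/SNF chromatin remodeller, stood at 29.6 CPM in RNA-Best against 90.6 CPM, a ratio of -1.60 (-1.70 to -1.53). Ep300, a histone acetyltransferase, had 21.3 and 63.5 CPM and a ratio of -1.55 (-1.68 to -1.48). At the other end was Pnrc2, at 0.06, and Ddx5 was the most abundant per kb, at -0.26. With TMM factors or DESeq2 size factors 3 of the 16 were 2-fold lower, and with the length trend removed none was and the median was -0.25.

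Of 14 corepressors 12 were lower and 1 (7.14%) was at least 2-fold lower, with a median of -0.56. Of all genes 67.0% were lower and 4.99% at least 2-fold lower, so the 1 gene is near the general share. With TMM factors 11 of the 14 were lower, against 51.3% of all genes. The highest was Phb2, at 0.29, and the most abundant per kb was Hdac2, at -0.19. With the length trend removed 8 of the 14 corepressors were below 0, against 48.9% of all genes, and their median was -0.18.

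Receptors of steroids outside the nuclear receptor family were measured too. Of 6 membrane proteins that averaged 1 CPM or more, 5 were lower in RNA-Best, 1 was higher and none passed 2-fold, with a median of -0.13. The share of all genes lower was 67.0%. Direction in this list followed the scaling, with 3 lower under TMM factors and 2 under DESeq2 size factors. Pgrmc1, a heme-binding membrane protein linked to progesterone, was the most abundant, at 272 and 250 CPM and a ratio of 0.12. Paqr8, a membrane progestin receptor, was the lowest at -0.56. The estrogen-responsive G-protein-coupled receptor Gper1 had 10.9 and 11.6 CPM and a ratio of -0.08 (-0.26 to 0.09), which changed sign under the other scalings.

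Of 10 enzymes that set the local supply of steroid 6 were higher and 4 lower in RNA-Best, with a median of 0.06 by total count, 0.23 with TMM factors, 0.24 with DESeq2 size factors and 0.18 without Prl and Gh. Hsd11b1, which regenerates active glucocorticoid from its inactive form, stood at 85.3 CPM in RNA-Best against 84.7 CPM, a ratio of 0.01 (-0.05 to 0.07). Hsd11b2, which inactivates glucocorticoid and thereby leaves the mineralocorticoid receptor to aldosterone, yielded 5 counts in RNA-Best and none (0) in RNAlater. The cells thus held transcripts of Nr3c2 and of the activating enzyme, while those of the protecting enzyme were near the floor. Cyp19a1, which encodes aromatase and was named after its values were seen, had 0 counts in both libraries. Akr1c14, a hydroxysteroid dehydrogenase, was the most abundant enzyme per kb, at 217 and 162 CPM and a ratio of 0.42. The ends of the list were Hsd17b10 at 0.62 and Hsd17b7 at -0.42.

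Known targets of the receptors lay on both sides of 0. Of 12 estrogen-responsive genes that averaged 1 CPM or more, 9 were lower in RNA-Best and 3 higher, with a median of -0.52. Among all genes 67.0% were lower. With TMM factors 9 of the 12 were again lower, against 51.3% of all genes. With the length trend removed 7 of the 12 were below 0, against 48.9% of all genes, and the median of the 12 was -0.13. None of the 12 passed 2-fold on the ratio with 0.5 CPM added. Pgr is a gene of this list as well as a member. Greb1, an estrogen-induced cofactor of estrogen receptor alpha with a transcript of 8.06 kb, had 49.5 and 89.5 CPM and a ratio of -0.85 (-0.93 to -0.78). Gal, which encodes galanin and has a transcript of 0.788 kb, had 118 and 109 CPM and a ratio of 0.11 (0.06 to 0.16). The ends of the list were Prl, the prolactin gene, at 0.45 and Rara, a retinoic acid receptor, at -0.99. Without the added 0.5 CPM the ratio of Rara was -1.02, just past 2-fold lower.

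Of 17 targets of glucocorticoid or mineralocorticoid receptors 15 were lower and 2 higher, with a median of -0.35, and 13 were lower with TMM factors and 12 with DESeq2 size factors. The shares of all genes lower were 67.0%, 51.3% and 50.3% in turn. At least 2-fold lower were 2 of the 17 (11.8%), Zbtb16 at -1.24 and Per1 at -1.07, the latter named after its value was seen, against 4.99% of all genes. Under each other scaling 1 of the 17 was 2-fold lower, and 0 were with the length trend removed. Sgk1, a kinase gene induced through both corticosteroid receptors, had 60.9 and 78.8 CPM and a ratio of -0.37 (-0.44 to -0.30). The highest was Scnn1b, a subunit of the epithelial sodium channel, at 0.12 (-0.02 to 0.28), and Mt2, a metallothionein, was the most abundant per kb at -0.42. With the length trend removed 15 of the 17 were still below 0 and their median was -0.24. Of all genes 48.9% were below 0 with this trend removed, with a median of 0.0084.

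**Figure D5:**
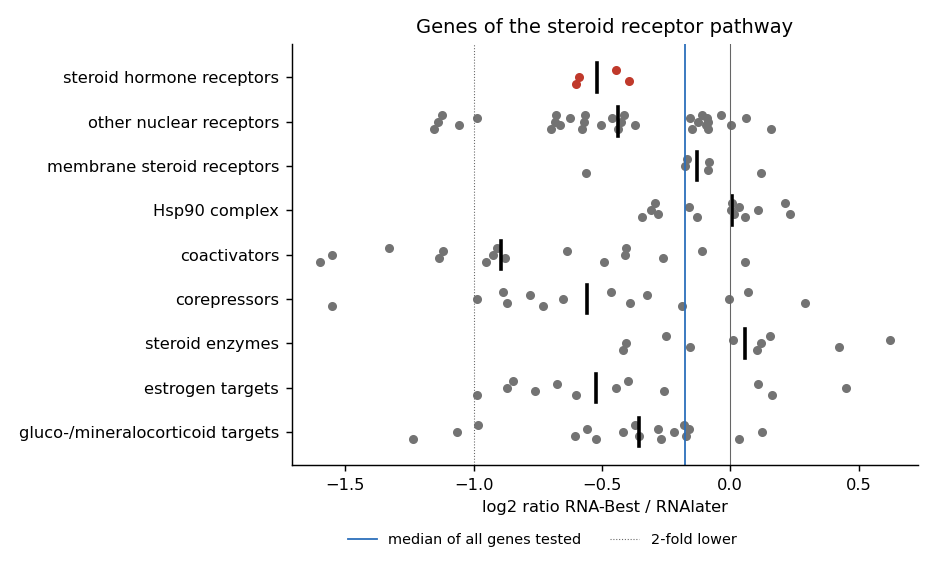
Log2 ratio of RNA-Best to RNAlater of each gene that averaged 1 CPM or more in lists of the steroid receptor pathway, with the list median as a black bar, the median of all genes tested as a blue line at -0.18 and 2-fold lower as a dotted line. The 4 measured members (red) lie between -0.60 and -0.40, and coactivators reach the lowest values.

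Markers of the cell types that carry these receptors were read beside them. In bulk samples fewer cells of a type and less RNA per cell cannot be told apart. Of 6 gonadotrope markers 3 were lower and 3 higher in RNA-Best, with a summed level of 795 CPM against 574 CPM. Cga was the most abundant of the 6 per kb and had the highest ratio, at 0.60. The gonadotrope receptor gene Gnrhr had 20.4 and 21.8 CPM. Of 6 corticotrope and melanotrope markers 4 were lower and 2 higher (9703 against 6990 CPM in sum, most of it Pomc). Of the 3 lactotrope markers Prl was higher and Drd2 lower, and Agtr1b was below 1 CPM. Their sum was 235672 against 172323 CPM. With TMM factors the lower markers were 1 of 6 for gonadotropes, 2 of 6 for corticotropes and melanotropes and 0 of 2 for lactotropes, Gnrhr and Drd2 being among those that turned.

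Lower in RNA-Best were 8 of 8 endothelial genes (386 against 798 CPM in sum), 8 of 8 pericyte and fibroblast genes (575 against 783 CPM), 5 of 5 posterior lobe genes (92.6 against 174 CPM) and 5 of 5 stem and folliculostellate genes that averaged 1 CPM or more (242 against 442 CPM, all 6 summed). Of the other lists, 4 of 7 macrophage genes were lower (188 against 179 CPM in sum), 5 of 5 erythroid genes were higher (3200 against 1130 CPM), 2 of 3 somatotrope genes were lower (62194 against 60602 CPM) and 2 of 3 thyrotrope genes were lower (96.5 against 83.9 CPM). With TMM factors or DESeq2 size factors 1 of 3 was lower in each of the somatotrope and thyrotrope lists, as Dlk1 and Trhr turned. Of all genes tested 67.0% were lower by total count and 51.3% with TMM factors. At least 2-fold lower by total count were 5 of 8 endothelial and 3 of 8 pericyte and fibroblast genes. So were 2 of 5 posterior lobe and 1 of 5 stem and folliculostellate genes, against 4.99% of all genes. With TMM factors these counts became 3, 3, 1 and 0, and with the length trend removed 1, 0, 1 and 0. With this trend removed 8 of 8, 7 of 8, 5 of 5 and 5 of 5 genes of these lists were below 0. At least 2-fold higher were 2 of 5 erythroid genes, against 0.273% of all genes. Each marker had at least 1 count in both libraries. The part of these cells in the ratios of the receptors was not tested.

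Genes whose level was most like that of each measured member were taken as the 3 protein-coding genes nearest in log2(CPM + 0.5) over the 2 libraries. For Esr1 these were Sun1, Aftph and Fam102a, for Nr3c1 Plcb4, Dusp8 and Rragd, for Nr3c2 Ppp4r1, Ttll4 and Agap2, and for Pgr Stk4, Prkci and Arhgef19. The distances were 0.00987 to 0.0350 log2 units. With 2 libraries such likeness says no more than that level and ratio were close.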

How the data were processed

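The authors deposited 1 table of estimated counts per gene, not normalized, with 1 column per library. Per the labels, reads were aligned with STAR 2.5.1b to mm10 and counted with featureCounts 1.5.0-p1. Strand setting and counting options were not given in the sources used here, and 35.4% of RNA-Best and 34.9% of RNAlater values above 0 were not whole. The study's methods name an mRNA kit without stating whether strand was kept. Whether reads of overlapping antisense genes were told apart is thus not known.

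Symbols, positions, lengths and sequences came from GENCODE M21 on GRCm38, matched by Ensembl identifier without version (98.8% of genes, and 203 of 206 listed genes). Each library was divided by its own total to give CPM. Log2 ratios had 0.5 CPM added, which understates the difference of low genes. Ratio intervals were exact conditional binomial and level intervals exact Poisson, on rounded counts, and differences between genes used the normal interval of log counts. LOWESS had a span of 0.2. With 1 library per group no model was fitted across genes, and edgeR 4.0.16 and DESeq2 1.42.0 gave scaling factors only. Python 3.11.15 with scipy 1.17.1 and statsmodels 0.14.6 was used, and the steps were tested on simulated data.

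The members and lists were chosen with earlier results of these data known. Genes named were the members, the estrogen-related receptors, per list the most abundant per kb and both ends of the ratio, Hsd11b1, Hsd11b2, Fkbp5, Sgk1, Greb1, Gal and the nearest genes in level. Chosen later were the receptors ranked above Esr1, Gper1, Gm10649, the cell type markers and those stated as such. Results for some listed genes are not reported here.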

Additional observations from a re-analysis of the deposited data

How the results depend on the processing

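The 4 measured receptors kept their direction under the 3 other scalings, both other pseudocounts and equal depth, and none reached 2-fold under any of the 8 alternatives. For Esr1, Nr3c1, Nr3c2 and Pgr in this order, the log2 ratio was -0.22, -0.43, -0.42 and -0.27 with TMM factors, -0.21, -0.42, -0.41 and -0.26 with DESeq2 size factors, and -0.27, -0.47, -0.47 and -0.32 with the total without Prl and Gh. With the trend on the longest transcript removed it was 0.19, -0.0097, -0.0518 and 0.18, and with the trend on the median transcript length removed -0.0629, -0.37, -0.19 and 0.0171. Of 32 alternative values 29 were negative, 3 were positive and 12 lay within the counting interval of the value reported. The median of all genes was -0.18 by total count, -0.01 with TMM factors, -0.0030 with DESeq2 size factors and -0.06 without Prl and Gh. The 824 genes at least 2-fold lower became 434, 419, 93 and 293 with TMM factors, DESeq2 size factors and removal of the longest and the median transcript trend.

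Chosen after seeing the data, counts of 2-fold lower genes in the lists were also taken under these settings. The 4 other nuclear receptors became 0 with TMM factors, DESeq2 size factors or the longest transcript trend removed. The 5 coactivators became 3, 3 and 0, the 1 corepressor became 0 with the trend removed, and the 2 corticosteroid targets became 1 under each other scaling and 0 with the trend removed. The causes of these shifts were not tested. No paired analysis was possible because both stabilizers have a single library, so no replicate could be left out either. Depth limits Esr2, whose counts cannot show a difference.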
